A study of Neolecta irregularis with 2 samples.

Results

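The data describe 159 long gene models of the fungus Neolecta irregularis for which no read was found. These loci were chosen by their measured reads and their length: exactly 1 transcript is listed at the locus, its coding length is at least 1500 nt, and its estimated reads are 0 in both specimens. Silent, in the plots and elsewhere, means only 0 reads in both specimens. They are 159 of 5497 loci in all, of 4904 loci with 1 listed transcript and of 1250 such loci of at least 1500 nt. The RNA came from 2 independent specimens of a botanic garden collection, DBG-F-033461 and DBG-F-031510, with 1 poly(A)-captured, stranded library each. The labels give no treatment and no strain for either, so there is 1 condition and no comparison of groups. Whether the specimens differ in genotype is not stated. The labels give the source as whole organism, and how much of each specimen was fruiting body is not stated for the RNA. The gene models are those of another isolate, the reference strain DAH-1, and a sequence that differs from it may yield no assigned read.

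A gene model is a prediction of a coding sequence from a genome. Fungi transcribe many of their genes only at certain stages, such as meiosis, spore formation or growth on a given food, so a gene can be intact and yet have no messenger RNA in a given tissue. A coding sequence can also be predicted where no gene is transcribed at all. Poly(A) capture records only RNA with a poly(A) tail that is still present when the RNA is extracted. By the paper, the specimens came from a fungarium and the material was kept cold after receipt. The paper evaluated RNA integrity but gives no value for it, and the time in storage is not stated. Whether RNA was lost before extraction was not tested. An absence of reads in whole tissue cannot separate a gene that is off in every cell from one that is on in a few cells, nor either of these from a prediction that is never transcribed.

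Specimen DBG-F-033461 has 1556674 estimated reads in total, and specimen DBG-F-031510 has 1511860. Expressed loci, against which the loci without reads are set, are the 1002 single-transcript loci of at least 1500 nt with at least 10 reads in each specimen. Another 89 loci of that length lie between, with reads in at least 1 specimen but fewer than 10 in one or both. The loci with 0 reads make up 12.7% of the single-transcript loci of at least 1500 nt, against 46.8% of the shorter ones, 38.1% of all single-transcript loci and 36.9% of all loci. Since the rule used the reads, these shares are a description and were not tested. With 1 library per specimen, no p-value is given anywhere, and intervals at the 95% level are exact binomial or exact Poisson intervals that cover counting error only. The binomial ones, given for shares, treat the loci as independent draws, although the shares differed along the locus numbers. Whether such intervals overlap is therefore a description and not a test.

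The loci without reads lie at 0 by the rule, and few of the other long gene models had reads close to it. Of the 1250 loci, 159 had 0 reads in the specimens together and 31 had 1 to 3, of which 17 had exactly 1. Then 24 loci had 4 to 10 reads and 45 had 11 to 30. Most had many more, with 332 loci at 301 to 1000 reads and 256 at over 1000. The class at 0 held more loci than the classes from 1 to 30 reads together.

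**Figure D1:**
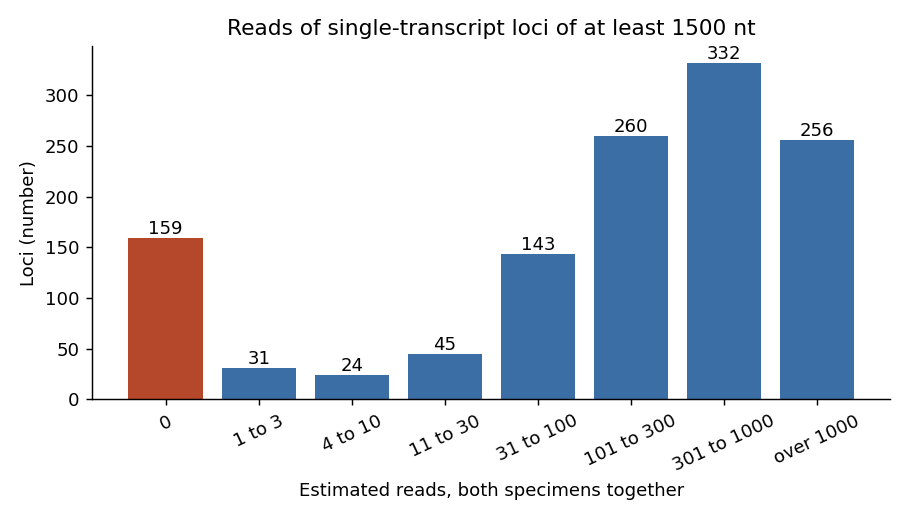
Number of single-transcript loci of at least 1500 nt (y axis) by the estimated reads of both specimens together (x axis, unequal classes). The 159 loci at 0 (red bar) stand beside 31 loci at 1 to 3 reads and 24 at 4 to 10.

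The choice on one specimen could be read in the other, which that choice did not use. Of the 176 loci with 0 reads in specimen DBG-F-033461, 159 also had 0 in specimen DBG-F-031510, or 90.3% (95% interval 85.0% to 94.3%). The other 17 had 1 to 5 reads there, and 10 of them had exactly 1. Chosen on specimen DBG-F-031510, 168 loci had 0 reads and 159 of these, or 94.6% (90.1% to 97.5%), had 0 in specimen DBG-F-033461. The other 9 had 1 to 3 reads in specimen DBG-F-033461, of which 7 had exactly 1. Of the 1074 loci with reads in specimen DBG-F-033461, by contrast, 9 (0.838%) had 0 in specimen DBG-F-031510, and of the 1082 with reads in specimen DBG-F-031510, 17 (1.57%) had 0 in specimen DBG-F-033461. The largest disagreement was NEOLI_003533 (2295 nt), with 0 reads in specimen DBG-F-033461 and 5 reads in specimen DBG-F-031510 (1.12 TPM). Both libraries thus left nearly the same loci without reads, and where they differed the other library had few.

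A count of 0 allows a level up to that of 3 reads, which falls as the gene model gets longer. The limit rests on assigned reads alone, and so only on the RNA left at extraction. By the paper's totals, most of its sequenced reads, and most of those it mapped, are not among the assigned reads. Levels are given in TPM, which are reads over effective length, scaled to 1000000 in each library. Over the 159 loci the limit had a median of 0.872 TPM in specimen DBG-F-033461 (0.357 to 1.07) and 0.866 TPM in specimen DBG-F-031510 (0.354 to 1.06). By the upper bound of the exact Poisson interval, the medians were 1.07 TPM and 1.07 TPM. The coding sequences together span 318470 nt, and 3 reads over all of them would be a level of 0.00491 TPM in specimen DBG-F-033461 and 0.00488 TPM in specimen DBG-F-031510. This pooled value is low because each locus was chosen at 0.

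Most expressed loci lay far above these limits. The median over all 1002 of them was 43.1 TPM in specimen DBG-F-033461 (quartiles 17.2 and 112). It was 46.9 TPM in specimen DBG-F-031510 (quartiles 18.4 and 117). These medians are 49.4 and 54.2 times the median limit, without matching for length. Loci of like length were then compared in classes. From 1500 to under 2000 nt, 102 loci without reads had a median limit of 0.952 TPM in specimen DBG-F-033461, where 416 expressed loci had a median of 59.7 TPM and a 5th percentile of 5.57 TPM. From 2000 to under 3000 nt, 45 loci without reads had a median limit of 0.683 TPM, against a median of 36.2 TPM and a 5th percentile of 4.87 TPM in 355 expressed loci. From 3000 nt upward, 12 loci without reads had a median limit of 0.457 TPM, against 33.6 TPM and 3.29 TPM in 231 expressed loci. In specimen DBG-F-031510 the limits were 0.946, 0.679 and 0.454 TPM, against expressed medians of 64.3, 40.2 and 36.9 TPM. The minimum of 10 reads sets a floor of its own under the expressed loci, so the gap between the limits and the lowest expressed levels follows from both rules. It also leaves out the 89 loci between, so the expressed medians are higher than they would be with those loci. By the mean of the specimens, the highest expressed locus was NEOLI_001799 (2118 nt), with 13401 TPM in specimen DBG-F-033461 and 3818 TPM in specimen DBG-F-031510, followed by NEOLI_002937 (3885 and 1554 TPM) and NEOLI_000679 (2422 and 2134 TPM), none of them named. In each specimen, 1 expressed locus lay under the highest limit, and it is the longest expressed model, NEOLI_000028 (14751 nt, 0.670 TPM from 20 reads in specimen DBG-F-033461 and 0.699 TPM from 21 reads in specimen DBG-F-031510).

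**Figure D2:**
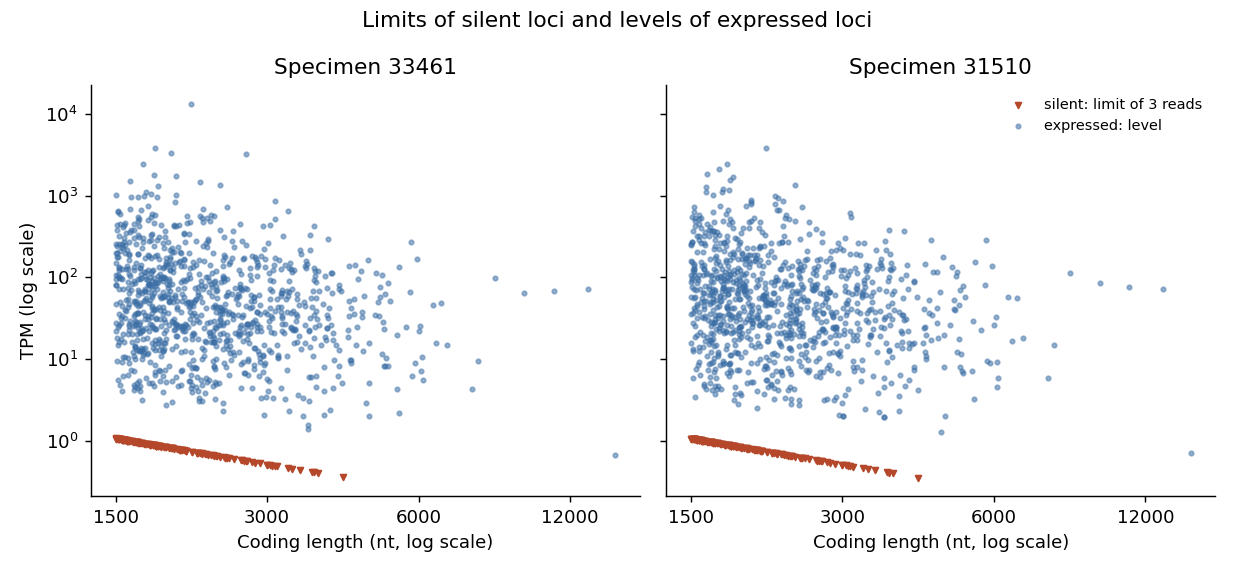
TPM (y axis, log scale) by coding length (x axis, log scale) in specimens DBG-F-033461 and DBG-F-031510. Red triangles are the limits that 3 reads set for the 159 loci without reads, at 0.354 to 1.07 TPM, and blue points are the levels of the 1002 expressed loci, with medians of 43.1 and 46.9 TPM.

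Loci without reads were short among the long gene models. Their median coding length was 1806 nt (quartiles 1617 and 2184, range 1500 to 4242), against 2169 nt (quartiles 1771 and 2906, range 1500 to 14751) in the expressed loci. At least 3000 nt were reached by 12 of 159 (7.55%), against 231 of 1002 (23.1%), and at least 4000 nt by 1 of 159 (0.629%), against 84 of 1002 (8.38%). The share without reads fell from one length class to the next. It was 18.1% (95% interval 15.0% to 21.6%) from 1500 to under 2000 nt, 12.01% (8.47% to 16.4%) to under 2500 nt, 7.33% (3.72% to 12.7%) to under 3000 nt, 6.55% (3.31% to 11.4%) to under 4000 nt and 1.15% (0.0291% to 6.24%) from 4000 nt. The intervals of neighbouring classes overlap, whereas those of the first and the last class do not. Longer models also gather more reads at the same TPM, so a weakly expressed model is less likely to be missed. The part of depth in the fall with length was not tested.

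**Figure D3:**
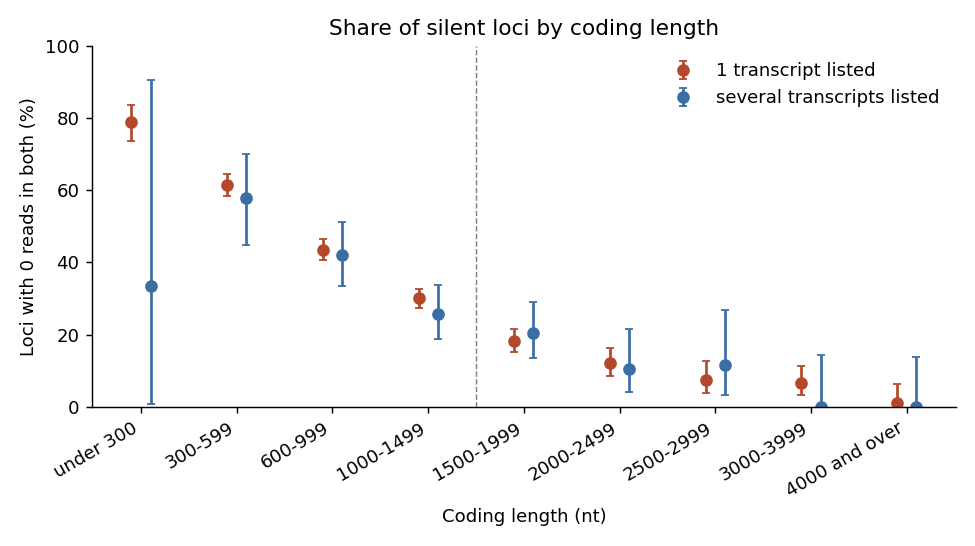
Share of loci with 0 reads in both specimens (y axis, percent) by coding length (x axis) for loci with 1 listed transcript (red) and with several (blue); bars are 95% exact binomial intervals and the dashed line marks 1500 nt. Above the line the red shares run from 18.1% down to 1.15%.

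Loci with several listed transcripts, which the rule left out, had a like share. With reads summed over transcripts, 33 of 254 such loci of at least 1500 nt had 0 reads in both specimens, or 12.99% (95% interval 9.11% to 17.8%), beside the 12.7% of single-transcript loci. From 3000 nt upward none of the 24 loci to under 4000 nt and none of the 25 longer ones was without reads. For 24 loci the interval reaches 14.2%, so the 6.55% of single-transcript loci of that class lies within it.

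Just inside the length minimum lay NEOLI_001214 with 1500 nt and just outside it NEOLI_005114 with 1497 nt, both with 0 reads in each specimen. Just outside the read minimum lay loci with a single read. NEOLI_000090 (2283 nt) had 0 reads in specimen DBG-F-033461 and 1 read in specimen DBG-F-031510 (0.225 TPM), NEOLI_000648 (1674 nt) had 1 read (0.315 TPM) and 0, and NEOLI_000892 (1752 nt) had 0 and 1 (0.298 TPM). Such loci differ from those chosen by 1 read.

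A single one of the 159 loci can be named from the annotation used here, which reaches only protein 54 of the study's list. It is NEOLI_001727 (2004 nt), whose transcript is annotated with a HORMA domain and with a zinc finger of the FYVE/PHD type. HORMA domains are protein folds that close around a peptide of a partner protein. They are known from Hop1 of budding yeast, which sits on the axes of meiotic chromosomes and acts in recombination, and also from Mad2 of the spindle checkpoint. In ascomycetes, meiosis takes place in asci, which fruiting bodies bear. Which of these roles this protein has is not known from its domain name. The locus had 0 reads in specimens DBG-F-033461 and DBG-F-031510, which allows up to 0.780 TPM and 0.775 TPM.

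Most of the named loci within 5 numbers of NEOLI_001727 had reads in both specimens. Directly below it, NEOLI_001726 (645 nt, not named) also had 0 reads in each specimen. Directly above it, NEOLI_001728, a protein with a YTH domain, a fold that binds methylated adenosine in RNA, had 112 reads in specimen DBG-F-033461 and 98 in specimen DBG-F-031510 (59.4 and 51.6 TPM, summed over 8 transcripts). NEOLI_001729, a protein with AAA ATPase and M41 peptidase domains, had 559 and 633 reads (121 and 136 TPM). NEOLI_001725, delta-aminolevulinic acid dehydratase of heme synthesis, had 166 and 320 reads (105 and 201 TPM). A Na+/K+ transporter, NEOLI_001724, had 372 and 311 reads (81.9 and 68.0 TPM). NEOLI_001723, a relative of the vacuolar Ca2+/H+ antiporter VCX1, was weaker, with 28 and 49 reads (12 and 20.9 TPM). NEOLI_001730, a cysteine synthase that forms cysteine from an activated serine, had 66 and 63 reads (30.9 and 29.3 TPM). NEOLI_001731 (1263 nt, not named) and NEOLI_001732, the nicotinamidase PNC1 of NAD salvage, had 0 reads in each. The HORMA locus thus lay with 1 other locus without reads inside a row of mostly expressed genes. Of the other 158 loci without reads, NEOLI_003220 (2676 nt) alone has named loci within 5 numbers. These are NEOLI_003222, a pseudouridylate synthase that modifies tRNA, with 39 reads in specimen DBG-F-033461 and 47 in specimen DBG-F-031510, NEOLI_003223, a protein with a splicing factor domain, with 84 and 124 reads, NEOLI_003224, a uroporphyrin III methyltransferase, with 6 and 27 reads, and NEOLI_003225, a casein kinase, with 1681 and 1548 reads.

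Of 12 gene lists searched by words in the annotation, 2 held a locus without reads, and in both it is NEOLI_001727. These were meiosis and recombination, with 1 annotated locus in all, and chromatin and transcription factors, with 3, of which NEOLI_001722 (2562 nt, 175 reads in specimen DBG-F-033461 and 261 in specimen DBG-F-031510) is an expressed long locus. Transporters had 5 annotated loci, 1 of them an expressed long locus. Ubiquitin and proteolysis had 1 annotated locus, also an expressed long one. Cytoskeleton and motors had 2, but the letters searched (actin) occur in the word interacting, so both are matches of letters only. RNA and translation had 2, and secondary metabolism, protein kinases and cell wall had 1 each, and none of these is a long locus without reads or an expressed long locus. The cell wall locus, NEOLI_003544, is annotated as the lectin VIP36 and was matched only through the word glucanase in a domain name. Mobile elements, DNA repair and replication, and repeats had 0. Of the expressed long loci 5 of 1002 are annotated, so these counts describe a few loci and not the functions of the 159.

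Of the loci without a name, the longest were NEOLI_002085 (4242 nt), with a limit of 0.357 TPM in specimen DBG-F-033461 and 0.354 TPM in specimen DBG-F-031510, and NEOLI_004705 (3786 nt), with 0.401 and 0.398 TPM. They are the members at which 0 reads limit the level most. Beside NEOLI_002085, the model NEOLI_002086 (3888 nt) had 16 and 18 reads (2.08 and 2.33 TPM), and NEOLI_002084 and NEOLI_002083 had 0. Both direct neighbours of NEOLI_004705 had 0 reads, and the loci beyond them, NEOLI_004703 with 453 and 516 reads and NEOLI_004707 with 21 and 22, were expressed.

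All but 1 of the 159 coding lengths are multiples of 3, and the exception is NEOLI_005102 (1658 nt). Another locus, NEOLI_003561 (1515 nt), is listed under a name that joins it to the next locus. A further 4 loci are listed only by an alternative isoform rather than by the first transcript, against 22 of 1002 (2.20%) among the expressed loci. Near-identical genes can share reads, and an estimate may then place them all on 1 copy. Among the expressed loci, 2 of 1002 had an estimate that was not whole to within 0.001. Whole estimates do not show that no reads were shared, since NEOLI_001724, with 3 transcripts of like length, has all of its 372 reads in specimen DBG-F-033461 on a single one. Whether a locus at 0 has a near-identical copy was not tested, since no sequence was analysed here.

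Loci were next placed by their number, which runs from 1 to 5513. Whether consecutive numbers always lie on 1 piece of the genome was not examined. The loci without reads rarely stood next to each other. There were 3 pairs at consecutive numbers and no longer run, and 153 loci had no such partner. A placement without regard to position would average 4.81 pairs among the loci that could have been chosen, in which 299 pairs of neighbours occur, and 4.56 pairs if any number were equally likely. Pairs 2 numbers apart came to 10, where such a placement averages 4.86. The median gap between neighbours in the list was 20.5 numbers. The largest gap ran from number 310 to 603 and held 75 long single-transcript loci with reads.

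The members of the 3 pairs, named here after their values were seen, were NEOLI_001749 (1647 nt) with NEOLI_001750 (1569 nt), NEOLI_002605 (1527 nt) with NEOLI_002606 (1785 nt), and NEOLI_004030 (1914 nt) with NEOLI_004031 (3303 nt). The second and the third pair had loci with 0 reads on both sides, of 285 and 321 nt and of 720 and 288 nt. The first had NEOLI_001751 (732 nt) with 0 reads above it and NEOLI_001748 with 707 reads in specimen DBG-F-033461 and 734 in specimen DBG-F-031510 (237 and 245 TPM) below it.

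With shorter loci and loci of several transcripts counted in, stretches without reads were longer. The 159 loci lay in 149 stretches of consecutive numbers with 0 reads. Of these, 58 held a single locus, 39 held 2 loci and 52 held 3 or more, of which 13 held 5 or more. Since 36.9% of all loci had 0 reads, stretches also arise in a placement without regard to position. The number and length to be expected were not computed, so these counts are a description. The longest, singled out after its values were seen, ran over 9 loci from NEOLI_002363 to NEOLI_002371 with 2 of the 159 among them, NEOLI_002368 (2577 nt) and NEOLI_002370 (1665 nt). The next locus below it had 53.4 TPM and the next above it 105 TPM as means of the specimens. A stretch of 8 loci from NEOLI_001806 to NEOLI_001813, also singled out after its values were seen, was unlike it in the lengths of its models. They were of similar length, from 990 to 1545 nt, 10389 nt in all, with 0 reads in each. Of these, NEOLI_001806 (1545 nt) is the member. Directly above this stretch lay NEOLI_001814 (180 nt), with 55 reads in specimen DBG-F-033461 and 46 in specimen DBG-F-031510 (381 and 314 TPM). Directly below it lay NEOLI_001805 (351 nt), with 7 and 2 reads (14.8 and 4.19 TPM). Another stretch of 8 loci, from NEOLI_004895 to NEOLI_004902, had models from 237 to 2031 nt.

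Most of the direct neighbours of the 159 loci could not have been chosen themselves, being shorter than 1500 nt or having several transcripts, so the rule did not use their reads. Of these 249 neighbours, 124 had 0 reads in both specimens, or 49.8% (95% interval 43.4% to 56.2%). Beside the expressed loci it was 603 of 1512, or 39.9% (37.4% to 42.4%). These intervals were apart by a narrow margin, and a locus that neighbours 2 others enters more than once (242 and 1370 distinct loci). With both the loci and the 0 reads of their neighbours taken from specimen DBG-F-031510 alone, the shares were 50.2% (44.0% to 56.4%) and 42.1% (39.6% to 44.6%). With locus numbers up to 5000 and both specimens they were 48.9% (42.1% to 55.7%) and 39.7% (37.2% to 42.2%). The intervals overlapped in both cases. Neighbours of similar length were compared because length goes with 0 reads. From 1000 to under 1500 nt, 36 of 75 neighbours of loci without reads had 0 reads, or 48.0% (36.3% to 59.8%), against 125 of 488 beside expressed loci, or 25.6% (21.8% to 29.7%). From 600 to under 1000 nt the shares were 51.1% (40.4% to 61.7%) and 39.4% (34.9% to 44.0%), and under 600 nt they were 57.8% (44.8% to 70.1%) and 61.7% (57.0% to 66.2%), with overlapping intervals in both classes. The length classes were chosen after the first values were seen. With a length minimum of 2000 nt, the shares over all neighbours outside that rule were 42.2% (32.4% to 52.3%) and 36.3% (33.3% to 39.3%), with overlapping intervals. The intervals were apart with minimums of 1000 nt (53.0% to 61.3% and 41.3% to 45.9%) and 3000 nt (42.7% to 83.6% and 25.9% to 34.7%). They were also apart with loci of several transcripts included in the rule (46.5% to 58.6% and 38.0% to 42.7%).

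Among neighbours of 1000 to under 1500 nt, the intervals were apart at distance 1 alone. At 2 numbers away, 28.4% (18.0% to 40.7%) had 0 reads beside loci without reads and 27.0% (23.2% to 31.1%) beside expressed loci. From 2 to 10 numbers away, the shares ran from 22.1% to 37.0% beside loci without reads and from 25% to 31.05% beside expressed loci, with overlapping intervals at each distance. Over neighbours of all lengths outside the rule the difference was not restricted to direct neighbours. At 2 numbers away the shares were 42.9% (36.6% to 49.4%) beside loci without reads and 40.5% (38.0% to 43.0%) beside expressed loci, but at 10 numbers away they were 50.2% (43.8% to 56.6%) and 39.1% (36.6% to 41.6%), about as far apart as at distance 1. At 8 numbers away the intervals were also apart, with 49.6% (43.2% to 56.0%) and 40.4% (37.9% to 42.9%). Blocks of the numbering also differ in their share of loci without reads, and the part of this in the neighbours' shares was not tested. Counting all lengths and both sides, 29 of 158 loci without reads (18.4%) had 0 reads at both neighbours and 57 (36.1%) at neither, against 115 (11.6%) and 455 (45.8%) of 994 expressed loci. These counts include neighbours whose reads the rule used and are not matched for length, so they are a description only.

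**Figure D4:**
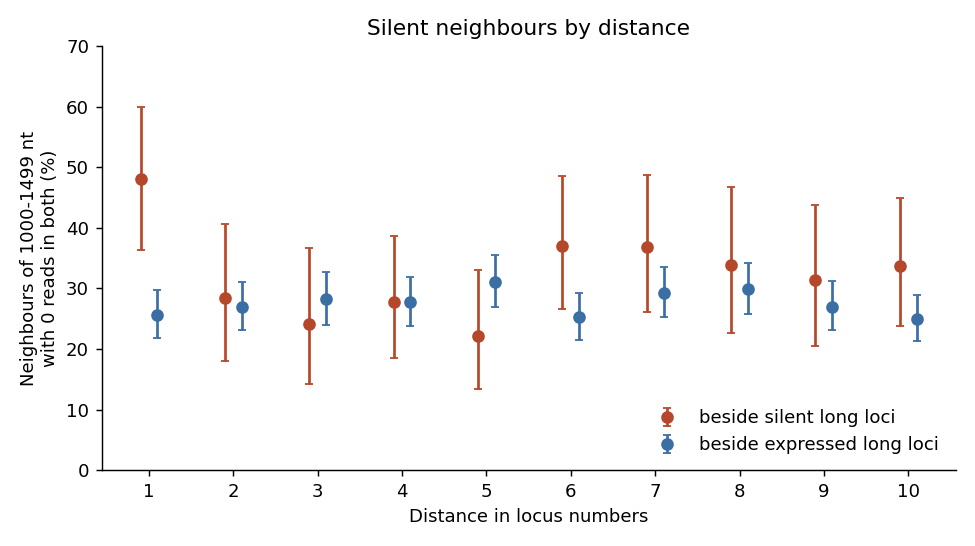
Share of neighbours of 1000 to under 1500 nt with 0 reads in both specimens (y axis, percent) by the distance in locus numbers (x axis), beside loci without reads (red) and beside expressed loci (blue); bars are 95% exact binomial intervals. At distance 1 the shares are 48.0% and 25.6%, and from distance 2 the intervals overlap.

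Among neighbours with at least 10 reads in each specimen, each median lay within the quartiles of the other set. Of the neighbours outside the rule, 98 beside loci without reads had at least 10 reads in each specimen, with a median of 84.0 TPM (quartiles 40.5 and 241). Beside expressed loci, 785 had a median of 98.7 TPM (quartiles 37.9 and 275). With a minimum of 1 read in each specimen, the medians were further apart and the lower quartiles lower. They were 59.3 TPM (quartiles 13.5 and 208) beside loci without reads and 83.8 TPM (quartiles 28.3 and 251) beside expressed loci. The highest neighbours, neither with a name, were NEOLI_002963 (378 nt), with 749 reads in specimen DBG-F-033461 and 833 in specimen DBG-F-031510 (1420 and 1566 TPM), and NEOLI_004081 (471 nt), with 961 and 1184 reads (1341 and 1640 TPM). They lie next to NEOLI_002964 (2073 nt) and NEOLI_004080 (1521 nt), whose limits in specimen DBG-F-033461 are 0.753 and 1.05 TPM. A locus without a read can therefore have a direct neighbour of over 1000 TPM.

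Along the locus numbers, loci without reads were most frequent at the high end. Above number 5000, 17 of 39 long single-transcript loci had 0 reads, or 43.6% (95% interval 27.8% to 60.4%), against 142 of 1211 below, or 11.7% (9.97% to 13.7%). In the 10 blocks of 500 numbers below, the share lay between 5.76% and 19.2%. The same end of the numbering was unlike the rest in other loci too. Of the other loci above number 5000 67.9% had 0 reads, against 33.4% to 55.1% in the blocks below, and the median length of all loci there was 644 nt, against 897 to 1178 nt. Within the class of 1500 to under 2000 nt, the shares were 13 of 23 (56.5%, 34.5% to 76.8%) above number 5000 and 89 of 539 (16.5%, 13.5% to 19.9%) below. From 2000 nt upward they were 4 of 16 (25%, 7.27% to 52.4%) and 53 of 672 (7.89%, 5.96% to 10.2%), with overlapping intervals. With locus numbers up to 5000, where the intervals over neighbours of all lengths overlapped, those of neighbours of 1000 to under 1500 nt were still apart, at 47.1% (34.8% to 59.6%) beside loci without reads and 25.3% (21.5% to 29.5%) beside expressed loci.

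**Figure D5:**
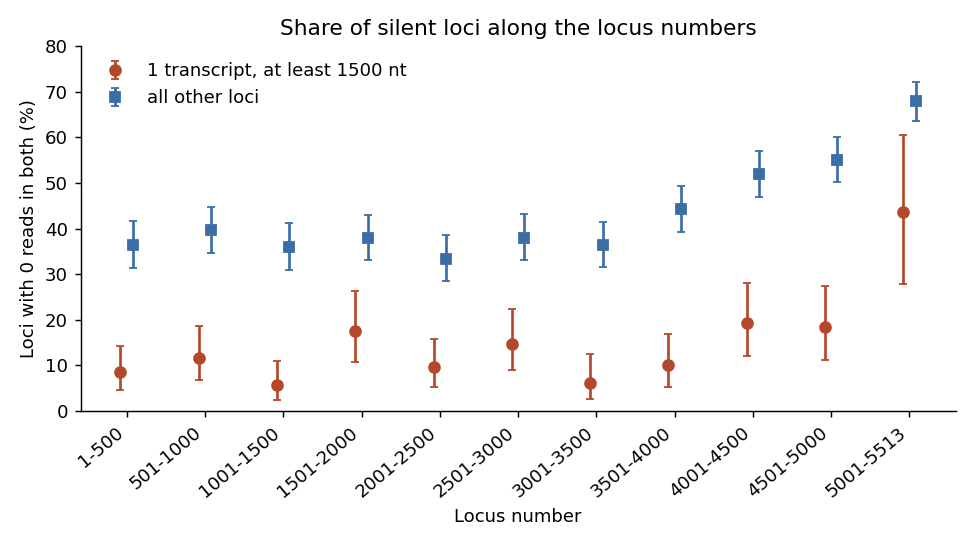
Share of loci with 0 reads in both specimens (y axis, percent) in blocks of locus numbers (x axis), for single-transcript loci of at least 1500 nt (red) and all other loci (blue); bars are 95% exact binomial intervals. The last block stands at 43.6% and 67.9%.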

How the data were processed

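RNA of 2 specimens was sequenced with 1 library each (1 condition). The authors deposited, for 6272 transcripts, estimated counts of reads without normalization, TPM, coding length and effective length. Read trimming and quality control with fastp 0.20.0 and FastQC 0.11.9 are credited to the submitters' notes. The paper's methods add mapping and counting tools that give no such columns, and which tool made the deposited TPM was not given in any source used here.

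The locus was read from the transcript name. Reads and TPM were summed over transcripts where a locus had several. A count of 0 was limited at 3 reads, divided by the effective length and scaled as the deposited TPM are. Expressed loci had at least 10 reads in each specimen. Shares carry exact binomial (Clopper-Pearson) 95% intervals. Pairs expected without regard to position were computed in closed form. No test was run. Python 3.11.15, numpy 2.4.6, scipy 1.17.1, pandas 2.3.3 and matplotlib 3.10.9 were used, and the counting steps were tested on simulated data. The members, the lists and the rule for named loci were chosen with earlier results of these data known. Names were taken from 1049 annotation rows. Named are the annotated member, its surroundings, the 2 longest members, those at the thresholds, the 2 highest neighbours and the 3 highest expressed loci. Alternatives varied the length and read minimums, the transcripts counted, the neighbours, the limit and the specimens.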

Additional observations from a re-analysis of the deposited data

How the results depend on the processing

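Over 12 results, 73 alternative values were computed, 63 of them set in advance and 10 chosen after seeing the data; 45 stayed within the spread of the result or, for counts, within 1.5 times. The length minimum moved most. With 1000 nt there were 504 loci without reads (21.0%), 61 pairs, where 47.3 are expected among eligible loci, a longest run of 5, and 57.2% silent neighbours beside loci without reads against 43.6% beside expressed loci. With 2000 nt there were 57 (8.28%), 0 pairs, where 0.540 are expected, a longest run of 1, and 42.2% against 36.3%. With 3000 nt there were 12 (4.71%), 0 pairs, where 0.0224 are expected, a longest run of 1, and 65.2% against 30.1%. With at most 3 reads in each specimen counted as silent, the share was 15.8%, the pairs 5 and the neighbours beside expressed loci 44.6%. With loci of several transcripts included there were 7 pairs. Expected pairs were computed only for the main rule and the length minimums. With all neighbours counted, including those whose reads the rule used, the shares were 41.0% and 32.9%. The median limit was 1.07 TPM in both specimens by the exact Poisson bound, and 1.03 TPM in both with full lengths. Without either replicate, the loci numbered 168 and 176 (13.4% and 14.1%), with 4 and 3 pairs. Neighbours with 0 reads in the specimen kept were then 50.2% and 50.4% beside loci without reads and 42.1% and 41.6% beside expressed loci. Their intervals overlapped without replicate 1 and were barely apart without replicate 2. By the order of transcript numbers the neighbour shares were 54.4% and 41.5%. With locus numbers up to 5000 they were 48.9% and 39.7%, and their intervals overlapped, as they did with the minimum of 2000 nt. The intervals were apart with minimums of 1000 nt and 3000 nt, with loci of several transcripts included and by the order of transcript numbers. They were narrowly apart with at most 3 reads counted as silent, with all neighbours counted and with the next listed locus taken across missing numbers. Neighbours restricted to the same scaffold were not run, since no genome was analysed here. No paired analysis was possible because the specimens form a single group. The limit near 0.87 TPM rests on the assigned reads alone.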
